A study of Mus musculus with 14 samples.

Results

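Among the WDR5 peaks of Mll1 flox cells, 2602 were called both under ethanol (EtOH) and under 4-hydroxytamoxifen (4OHT), lay in H3K4me2 of the EtOH cells, and had no WDR5 peak over them in either list of MAF9 cells. They are called flox-only WDR5 peaks here. They were chosen by measured overlaps of at least 1 bp between 5 peak lists, on the 19 autosomes, and made up 7.66% of the 33974 autosomal EtOH WDR5 peaks, or 2602 of 34587 on all chromosomes. The rule narrowed the list in steps. Of the autosomal EtOH WDR5 peaks, 18595 (54.7%) overlapped EtOH H3K4me2, and 5778 of these (31.1%) also overlapped a 4OHT WDR5 peak and are called recurrent. The 2602 flox-only peaks were 45.0% of the recurrent peaks, 1692 others overlapped 1 MAF9 WDR5 list, and 1484 overlapped both. These counts follow from the rule and describe it. The remaining 5 lists, H3K4me2 of 4OHT, DMSO and MM-401 cells and MLL1 of DMSO and MM-401 cells, had no part in the choice.

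The study mapped proteins by chromatin immunoprecipitation followed by sequencing (ChIP-seq) in mouse bone marrow cells that all carried the transduced MLL-AF9 fusion. MAF9 cells, with no engineered Mll1 allele named, were given DMSO or, for 2 days, 20 µM MM-401. Cells labelled MLL1 flox/flox, ER-cre+/-, MAF9 transduced, called Mll1 flox cells here, were given EtOH or, for 2 days, 400 nM 4OHT. Both were grown with 15% serum and 10 ng/ml of interleukin-3, and each condition and antibody had 1 library, so no value carries replicate error and no test between conditions was run. The lists hold positions only, so read depth was unknown, a missing peak is a peak that was not called, and neither the cell identity nor the deletion of Mll1 under 4OHT could be checked in them. Cell line, experiment and the length of the lists changed together between MAF9 and Mll1 flox cells, and their parts in the difference cannot be told apart. The autosomal WDR5 lists held 33974 peaks in EtOH, 40439 in 4OHT, 14289 in DMSO and 17067 in MM-401.

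WDR5 is a core subunit of the methyltransferase complexes formed by MLL1 and its relatives, where it helps to hold the catalytic subunit in an active assembly. These complexes methylate lysine 4 of histone H3, and the dimethylated form (H3K4me2) marks promoters and enhancers, usually as a domain that spans several nucleosomes. MM-401 blocks the contact between MLL1 and WDR5, while 4OHT activates the Cre recombinase fused to an estrogen receptor domain and so removes the floxed part of Mll1. MLL-AF9 is a leukemia fusion that keeps the amino-terminal part of MLL1 and lacks its methyltransferase domain.

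H3K4me2 was not absent from MAF9 cells at most of these places. Of the 2602 flox-only WDR5 peaks, 2519 (96.8%) overlapped H3K4me2 in at least 1 MAF9 list, against 95.8% of all 18595 EtOH WDR5 peaks in H3K4me2, and 2237 (86.0%, 84.6 to 87.3%) in both, against 87.4%. The DMSO list covered 2268 of them, or 87.2% (95% Wilson interval 85.8 to 88.4%), against a background of 89.6% over the same 18595 peaks. The MM-401 list covered 2488, or 95.6% (94.8 to 96.3%), against a background of 93.5%. These intervals reflect only how many peaks were counted and take peaks near each other as independent. Neither MAF9 list had H3K4me2 at 83 flox-only peaks, or 3.19% (2.58 to 3.94%), against 4.24% of all EtOH WDR5 peaks in H3K4me2. That share was 7.96% when 50% of the peak had to be covered, 0.0769% when a mark up to 2 kb away counted, and 5.66% when the 4OHT WDR5 list was left out of the rule. The label of these peaks as specific to the Mll1 flox line thus held for the WDR5 calls, from which they were chosen, and not for the H3K4me2 domain.

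Compared with recurrent peaks that both MAF9 lists shared, the flox-only peaks were covered somewhat less often. In DMSO the shared peaks had H3K4me2 in 93.3% of cases (91.9 to 94.4%), and in MM-401 in 97.8% (97.0 to 98.5%), in both lists above the flox-only interval. They lacked it in both lists in 1.55% of cases (1.03 to 2.31%). The 4OHT list gave the same order, with 94.5% (93.5 to 95.3%) of flox-only and 97.1% (96.1 to 97.8%) of shared peaks covered, against a background of 93.2%. The order was therefore also seen in a list from the Mll1 flox cells. Recurrent peaks shared with 1 MAF9 list fell between, at 89.8% in DMSO (88.2 to 91.1%). The 9437 EtOH WDR5 peaks in H3K4me2 without a 4OHT or a MAF9 WDR5 peak, called EtOH-only, had H3K4me2 in 88.3% of cases in DMSO and 90.1% in MM-401, and in neither list in 6.35%.

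**Figure D1:**
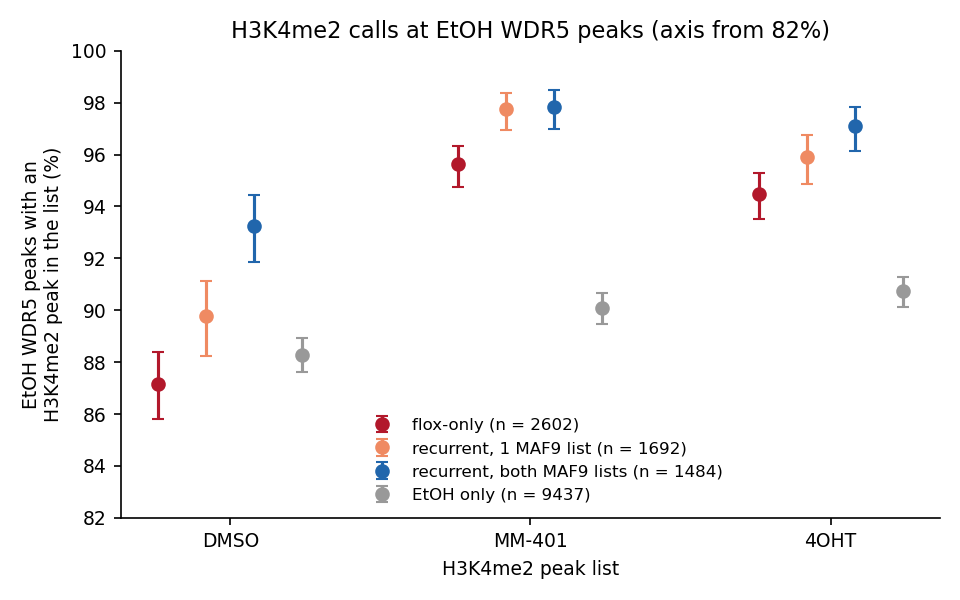
Share of EtOH WDR5 peaks that overlapped an H3K4me2 peak of the DMSO, MM-401 or 4OHT list, by group of WDR5 peaks, on an axis from 82%; bars are 95% Wilson intervals over peaks. The flox-only peaks lay at 87.2% in DMSO and 95.6% in MM-401, below the peaks shared with both MAF9 lists at 93.3% and 97.8%.

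The width of the WDR5 peak moved with this difference. Width is tied to both sides, since the groups and the H3K4me2 calls rest on overlaps of at least 1 bp. Wider peaks meet such an overlap more easily. Flox-only WDR5 peaks had a median width of 200 bp (quartiles 131 to 300 bp) in EtOH, the peaks shared with 1 MAF9 list 250 bp, and those shared with both 325 bp. Within classes of WDR5 width the intervals of flox-only and shared peaks overlapped for both MAF9 H3K4me2 lists in every class. At 75 to 100 bp the DMSO shares were 83.8% (80.0 to 87.1%) for flox-only and 83.6% (72.9 to 90.6%) for shared peaks. At 301 to 500 bp they were 91.5% (88.5 to 93.8%) and 94.8% (92.1 to 96.5%). From 101 bp to 1000 bp the flox-only share was the lower one in each class for both lists. The intervals overlapped, which does not show equal shares. In classes of the width of the EtOH H3K4me2 domain, the DMSO share was also lower for flox-only peaks throughout. Its intervals separated at 2001 to 4000 bp, with 88.8% (86.6 to 90.6%) against 94.9% (92.8 to 96.4%). They also separated above 8 kb, with 85.5% (81.7 to 88.6%) against 94.7% (90.5 to 97.1%), and overlapped in the other classes. The MM-401 intervals separated from 2001 to 8000 bp and overlapped elsewhere. Among flox-only peaks alone, the share with H3K4me2 in neither MAF9 list fell with WDR5 width. It was 6.18% (4.25 to 8.90%) at 75 to 100 bp and 0.915% (0.357 to 2.33%) at 301 to 500 bp. The other groups fell too, from 5.97% to 0.748% for peaks shared with both MAF9 lists and from 2.65% to 1.20% for those shared with 1. For EtOH-only peaks the share fell from 7.79% to 2.10%.

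The DMSO list lacked H3K4me2 at 334 flox-only peaks and the MM-401 list at 114, of which 83 (72.8%, 64.0 to 80.1%) were also missing in DMSO. H3K4me2 was called in MM-401 but not in DMSO at 251 flox-only peaks, or 9.65% (8.57 to 10.8%), against 6.14% of all EtOH WDR5 peaks in H3K4me2. The reverse was seen at 31, or 1.19%, against 2.22%. Peaks shared with both MAF9 lists showed the first pattern in 77 cases, or 5.19% (4.17 to 6.44%). Those shared with 1 MAF9 list showed it in 139, or 8.22% (7.00 to 9.62%), an interval that overlapped the flox-only one. These 251 places were mostly gaps inside a DMSO domain. At 223 of them (88.8%, 84.3 to 92.2%) the DMSO list had H3K4me2 within 1 kb on both sides, the gap between the flanking peaks had a median of 525 bp, and the nearest DMSO H3K4me2 peak was a median of 50 bases away. Of the peaks of the same kind shared with both MAF9 lists, 65 of 77 (84.4%) lay in such gaps, with a median of 675 bp.

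The profile around the flox-only peaks showed the same dip. At the centre of the WDR5 peak, H3K4me2 covered 97.1% of flox-only peaks in EtOH, 88.7% in MM-401, 85.2% in 4OHT and 73.6% in DMSO. DMSO coverage was highest beside the centre, at 83.8% at 550 bp to the left. The other lists that the rule did not use also peaked off centre, 4OHT at 89.8% and MM-401 at 90.9%, both 400 bp to the right. The dip was not particular to flox-only peaks, since at peaks shared with both MAF9 lists DMSO coverage was 69.0% at the centre and 87.1% at its highest. WDR5 itself was listed in 4OHT over 65.4% of the centres. The MAF9 WDR5 lists were at 0 there by the rule and reached 7.03% in DMSO, 300 bp to the right, and 5.50% in MM-401, 500 bp to the left.

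**Figure D2:**
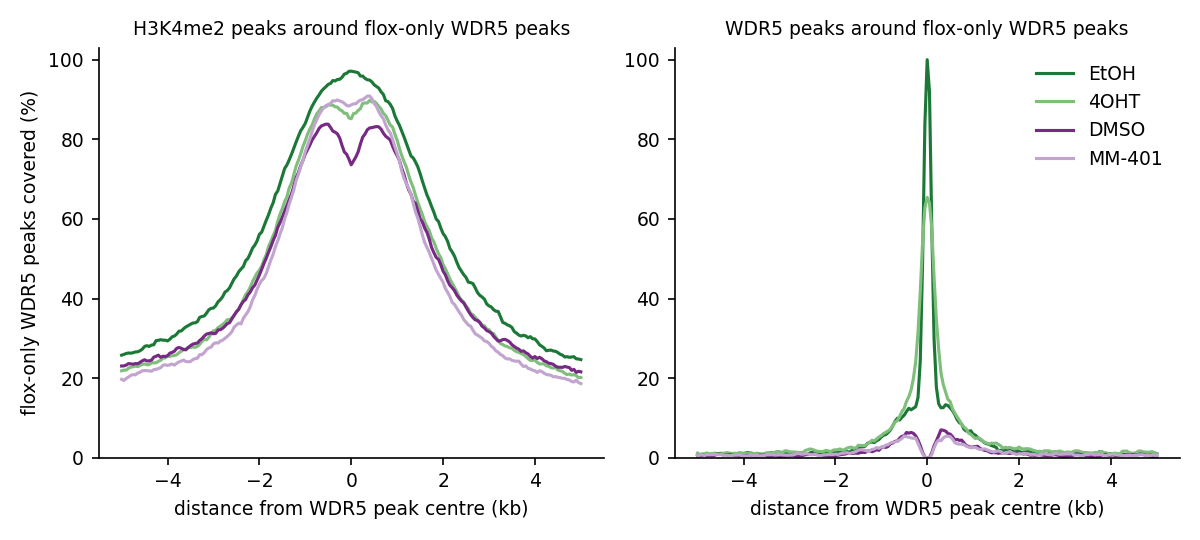
Share of the 2602 flox-only WDR5 peaks covered by an H3K4me2 peak (left) or a WDR5 peak (right) of each list, against the distance from the EtOH WDR5 peak centre in kb; the legend in the right panel holds for both. H3K4me2 in DMSO dipped to 73.6% at the centre from 83.8% beside it, while the DMSO and MM-401 WDR5 lists were at 0 at the centre by the rule.

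The 83 flox-only peaks with H3K4me2 in neither MAF9 list lay close to the mark, at the edges of EtOH domains. H3K4me2 of a MAF9 list lay within 1 kb of 79 of them, and 2 had none within 2 kb. For 67 of the 83 the host domain, the EtOH H3K4me2 peak sharing most bases with the WDR5 peak, was overlapped by MAF9 H3K4me2 elsewhere. The 83 centres lay a median of 87 bp from the host edge, against 1237 bp for all flox-only peaks, and 46 of the 83 (55.4%, 44.7 to 65.6%) were wholly inside the host, against 2420 of 2602 (93.0%). Most of them also lacked the mark in treated Mll1 flox cells. The 4OHT list had H3K4me2 at 20 of the 83, so that 63 (75.9%, 65.7 to 83.8%) carried it in the EtOH list alone. Of the 2458 flox-only peaks with H3K4me2 in 4OHT, those 20 were 0.814% (0.527 to 1.25%), while of the 144 without it 43.8% (35.9 to 51.9%) lacked it in both MAF9 lists.

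Single regions showed this. Coordinates are given as deposited, on mm9, the build named in the submitters' processing notes. The widest of the 83 was on chromosome 3 from 135101351 to 135101900, a peak of 550 bp that reached over the left edge of a host of 5875 bp. H3K4me2 was called in no list but EtOH there, and lay 325 bases away in MM-401, 350 in DMSO and 375 in 4OHT. On chromosome 7, the peak from 80703051 to 80703425 reached over the right edge of a host of 13950 bp, with MM-401 H3K4me2 100 bases away and DMSO H3K4me2 375 bases away. On chromosome 11, from 29072726 to 29073050, MM-401 H3K4me2 adjoined the peak at 0 bases, DMSO H3K4me2 lay 50 bases away, and the host was 2950 bp wide. On chromosome 13, from 14155626 to 14155950, MM-401 H3K4me2 again adjoined and DMSO H3K4me2 lay 25 bases away. The last of the 5 widest, on chromosome 1 from 80337051 to 80337375, differed in having a host of 150 bp.

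Hosts with no MAF9 H3K4me2 anywhere were few and narrow. They held 17 flox-only peaks (0.653%, 0.408 to 1.04%), against 1.83% of all EtOH WDR5 peaks in H3K4me2, 0.337% of peaks shared with both MAF9 lists and 3.09% of EtOH-only peaks. Their median width was 175 bp, from 75 to 425 bp. Only 3 of the 17 had H3K4me2 in 4OHT. The widest such host was on chromosome 1 from 120279526 to 120279950, where 4OHT H3K4me2 covered 52.9% of its bases and the nearest MAF9 H3K4me2 lay 350 bases away in DMSO. The next, on chromosome 11 from 120592726 to 120593100 and on chromosome 19 from 5788951 to 5789325, were both 375 bp wide and had no H3K4me2 in 4OHT. In all 3 hosts the WDR5 lists of EtOH and 4OHT held 1 peak each.

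Host domains of the flox-only peaks were wide. Their median was 3900 bp (95% interval of the median 3775 to 4000 bp), with quartiles of 2625 and 6050 bp, and 15.3% of the peaks lay in hosts wider than 8 kb. Counted once each, all 98735 autosomal EtOH H3K4me2 domains had a median of 300 bp, and the 12976 with an EtOH WDR5 peak 2825 bp. The like value for flox-only hosts was 3750 bp. Wide domains are also more easily overlapped by a peak, so picking domains by overlap favours wide ones. The width was shared with the other recurrent peaks. Hosts had a median of 3788 bp (3650 to 3925 bp) for peaks shared with 1 MAF9 list and 3550 bp (3400 to 3675 bp) for those shared with both, while the EtOH-only peaks lay in hosts of 3225 bp (3150 to 3275 bp). With each of the 2316 hosts counted once, the flox-only median was 3750 bp (3650 to 3875 bp) and that of peaks shared with both lists 3525 bp (3375 to 3650 bp), with intervals that met at 3650 bp. Across host width classes the flox-only share of recurrent peaks was lowest at 42.2% (1001 to 2000 bp) and highest at 65 of 130 (75 to 500 bp). Across WDR5 width classes that share fell from 65.9% (62.1 to 69.5%) at 75 to 100 bp to 3 of 92 above 1000 bp. The rule drops peaks that share 1 bp with a MAF9 WDR5 peak, which wider peaks do more easily. The fall with WDR5 width is therefore not independent of the rule.

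**Figure D3:**
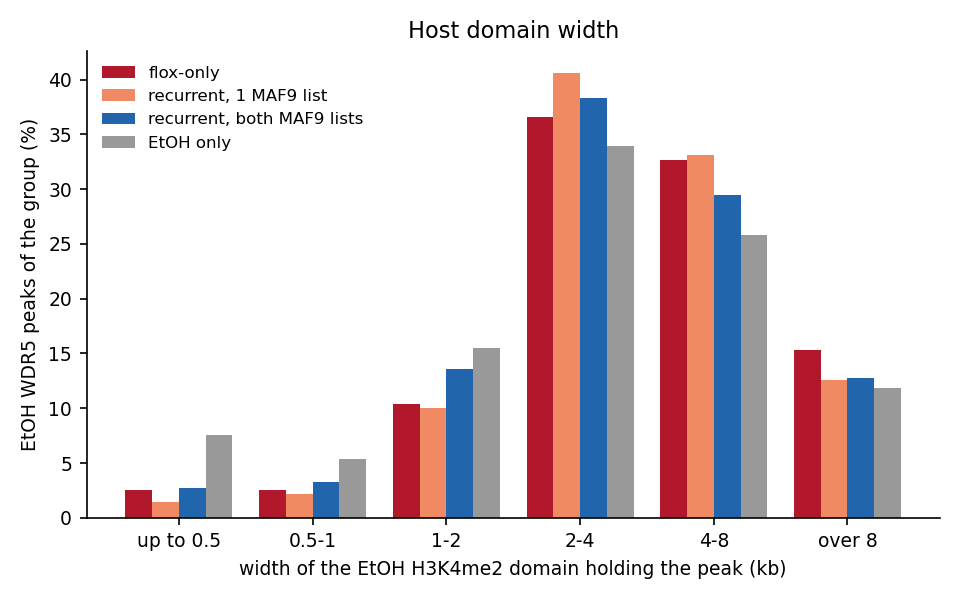
Share of each group of EtOH WDR5 peaks by the width of the EtOH H3K4me2 domain that holds the peak, in kb. Hosts of 2 to 4 kb held 36.6% and hosts of 4 to 8 kb held 32.7% of the flox-only peaks, and hosts up to 0.5 kb held 2.50%.

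Coverage by MM-401 H3K4me2 rose with host width and then levelled. In hosts up to 500 bp, 63.1% (50.9 to 73.8%) of flox-only peaks had H3K4me2 in MM-401, and 27.7% (18.3 to 39.6%) had it in neither MAF9 list. In hosts of 2001 to 4000 bp the shares were 96.4% and 2.52%, and above 8 kb 97.5% and 2.26%. The DMSO share of flox-only peaks rose from 55.4% in hosts up to 500 bp to 89.1% (86.8 to 91.0%) at 4001 to 8000 bp. Above 8 kb it was lower, at 85.5% (81.7 to 88.6%), with overlapping intervals. Low coverage in narrow hosts was not particular to flox-only peaks. In hosts up to 500 bp, neither MAF9 list had the mark at 17.5% of peaks shared with both MAF9 lists. It was 28% for peaks shared with 1 list and 42.3% for EtOH-only peaks. The host domains of flox-only peaks were shorter in the other lists. The H3K4me2 peak over a flox-only WDR5 peak had a median width of 3900 bp in EtOH, the list that defined the hosts, 2800 bp in 4OHT, 2650 bp in MM-401 and 2175 bp in DMSO. Together the pieces in the other lists still covered 91.0% of the host bases in 4OHT, 87.2% in MM-401 and 86.9% in DMSO. A host was called as 2 or more pieces in 54.3% of cases in 4OHT, 53.3% in MM-401 and 62.3% in DMSO. Hosts of peaks shared with both MAF9 lists gave nearly the same values, with medians of 2775 bp in 4OHT, 2625 bp in MM-401 and 2150 bp in DMSO.

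MAF9 WDR5 peaks were often near. Of the flox-only peaks, 1601 (61.5%, 59.6 to 63.4%) had a WDR5 peak of DMSO or MM-401 cells within 2 kb, against 51.9% (50.9 to 52.9%) of the EtOH-only peaks. Within 500 bases the shares were 45.2% and 32.0%. The median distance was 700 bases for flox-only and 1700 bases for EtOH-only peaks. At the threshold of the rule, 128 flox-only peaks adjoined a MAF9 WDR5 peak at 0 bases, and 138 recurrent peaks just outside it shared 25 bp or less. Both sets had a median WDR5 width of 200 bp, and their hosts had medians of 4113 and 4163 bp. H3K4me2 was called at 84.4% and 92.0% of them in DMSO and at 95.3% and 99.3% in MM-401. These shares rest on 128 and 138 peaks and have no intervals, so no step at the threshold is read from them.

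**Figure D4:**
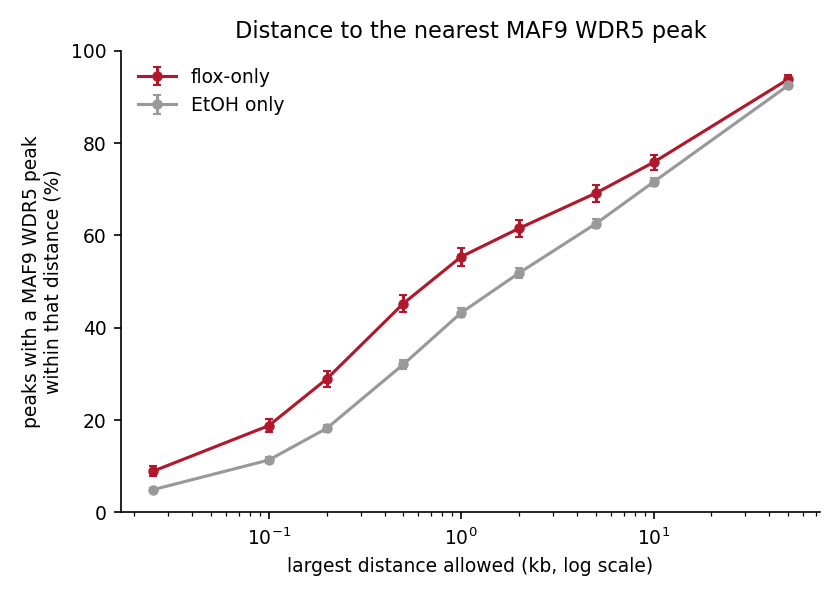
Share of flox-only and EtOH-only WDR5 peaks with a DMSO or MM-401 WDR5 peak within a given number of bases, on a log axis in kb; bars are 95% Wilson intervals over peaks. The flox-only share was 61.5% and the EtOH-only share 51.9% within 2 kb, and the curves drew together at 50 kb, at 93.8% and 92.5%.

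The other 1001 flox-only peaks (38.5%) had no MAF9 WDR5 peak within 2 kb. Their H3K4me2 share was 87.1% (84.9 to 89.0%) against 87.2% (85.5 to 88.7%) for the nearer ones in DMSO. In MM-401 their share was lower, at 94.4% (92.8 to 95.7%) against 96.4% (95.3 to 97.2%), with overlapping intervals. Neither MAF9 list had the mark at 37 of them, or 3.70%. Their hosts were narrower, with a median of 3175 bp (3025 to 3375 bp) against 4375 bp (4200 to 4575 bp). Their WDR5 peaks had a median of 225 bp against 200 bp.

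The farthest flox-only peak from MAF9 WDR5 lay on chromosome 5 from 128097426 to 128097550, 1395875 bases from the nearest MM-401 and 1399950 bases from the nearest DMSO WDR5 peak. Its host was 10225 bp wide, and the H3K4me2 peak over the flox-only peak was 10050 bp wide in DMSO, 9475 bp in MM-401 and 9425 bp in 4OHT. Another, from 128113126 to 128113400 on the same chromosome, lay in H3K4me2 peaks of 6750 bp in EtOH and 4OHT, 9150 bp in DMSO and 5375 bp in MM-401. The next, on chromosome 3 from 113332701 to 113333025, lay in a host of 2925 bp, with an H3K4me2 peak of 2900 bp in MM-401 and none in DMSO, whose nearest H3K4me2 peak was 150 bases away.

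Within the domain, other WDR5 peaks were common. The host of 1631 flox-only peaks (62.7%, 60.8 to 64.5%) also held a MAF9 WDR5 peak, and that of 971 (37.3%, 35.5 to 39.2%) held none, against 29.1% of all EtOH WDR5 peaks in H3K4me2. That background includes peaks that themselves overlap a MAF9 WDR5 peak, and among the EtOH-only peaks 46.6% (45.6 to 47.6%) had no MAF9 WDR5 peak in the host. In 61.0% of cases (59.1 to 62.9%) the host held 2 or more EtOH WDR5 peaks, against 51.8% of all EtOH WDR5 peaks in H3K4me2, 58.0% (55.6 to 60.3%) of peaks shared with 1 MAF9 list, 48.5% of those shared with both and 49.6% of EtOH-only peaks. Of the 2316 hosts, 2068 held 1 flox-only peak and 248 held 2 to 5, with 534 flox-only peaks among them. In 382 hosts a flox-only peak stood beside a recurrent peak that a MAF9 list shared. The widest flox-only peak of the host was narrower than its widest shared peak in 265, equal in 15 and wider in 102. The medians were 200 and 300 bp. Narrow flox-only peaks are favoured here by the rule, which drops peaks that share 1 bp with a MAF9 WDR5 peak. Flox-only peaks lay centrally, with 66.7% (64.8 to 68.5%) of centres in the middle 25 to 75% of the host, against 60.6% (59.6 to 61.5%) of EtOH-only peaks and 69.9% (67.6 to 72.2%) of peaks shared with both MAF9 lists.

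The host with most flox-only peaks was on chromosome 10 from 79607701 to 79630400, 22700 bp wide, with 5 of them among 8 EtOH and 10 4OHT WDR5 peaks. DMSO cells had 2 WDR5 peaks in it and MM-401 cells 4, at 50 to 1325 bases from the flox-only peaks, and DMSO H3K4me2 covered 95.6% of its bases. Of 4 hosts with 4 flox-only peaks each, the first by chromosome number and start are given. A host of 8900 bp on chromosome 8, from 73128001 to 73136900, held 4 flox-only peaks beside 2 DMSO and 1 MM-401 WDR5 peaks. Another of 11950 bp on chromosome 10, from 80886976 to 80898925, held 4 beside 1 DMSO and 3 MM-401 WDR5 peaks. All flox-only peaks of these 3 hosts had H3K4me2 in DMSO, MM-401 and 4OHT.

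The widest flox-only peak was on chromosome 7 from 87170776 to 87172350, 1575 bp in EtOH and 1450 bp in 4OHT. The nearest WDR5 peak lay 5025 bases away in DMSO and 5825 bases away in MM-401, although H3K4me2 peaks of 3800 bp and 3400 bp covered the place in these cells. The next, on chromosome 7 from 26471676 to 26472825, was 1150 bp wide and had a DMSO WDR5 peak 225 bases away. On chromosome 10, from 80599976 to 80601000, a peak of 1025 bp had an MM-401 WDR5 peak 50 bases away and an MM-401 MLL1 peak of 75 bp over it. A peak of 975 bp on chromosome 12, from 53071701 to 53072675, stood farther from MAF9 WDR5, 34575 bases in DMSO and 104825 bases in MM-401. It had MLL1 peaks in both MAF9 lists, of 245 bp in DMSO and 200 bp in MM-401. The last of the 5, on chromosome 7 from 134888926 to 134889875, was 950 bp wide and 27875 bases from MM-401 WDR5.

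In 4OHT the WDR5 peak over a flox-only peak had a median width of 225 bp, and it was wider than the EtOH peak in 1414 cases, equal in 177 and narrower in 1011. A median of 125 bp was shared, and the centres lay a median of 87.5 bp apart.

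MLL1, the methyltransferase itself, was mapped in MAF9 cells only, and few of these peaks overlapped it. The DMSO MLL1 list overlapped 76 flox-only peaks, or 2.92% (2.34 to 3.64%), against a background of 2.88%, and 71 of the peaks shared with both MAF9 WDR5 lists, or 4.78% (3.81 to 5.99%). The MM-401 MLL1 list overlapped 145 flox-only peaks, or 5.57% (4.75 to 6.52%), against 5.67%, and 9.16% (7.80 to 10.7%) of the shared peaks. The flox-only shares were thus at the background of all EtOH WDR5 peaks in H3K4me2. In both lists the share was lower than at the wider peaks shared with both MAF9 WDR5 lists, by more than the intervals. The MLL1 lists came from different callers, so DMSO and MM-401 were not compared. Either list had MLL1 at 212 flox-only peaks (8.15%), against a background of 8.10%, and both lists at 9 (0.346%), against 0.446%. The MLL1 shares depended on the overlap required. They were 20.8% in DMSO and 44.4% in MM-401 when MLL1 up to 2 kb away counted, and 1.35% and 2.27% when 50% of the flox-only peak had to be covered.

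Flox-only peaks were spread over all 19 autosomes, from 44 on chromosome 18 to 282 on chromosome 11. Successive peaks on a chromosome were a median of 177 kb apart, and 315 of 2583 gaps (12.2%) were within 5 kb. As a share of the recurrent peaks, the autosomes lay between 39.9% and 53.7%, with 1 exception. On chromosome 1, 99 of 388 recurrent peaks were flox-only, or 25.5% (21.4 to 30.1%), against 46.4% (45.1 to 47.8%) on the other autosomes. It was the only autosome whose interval lay wholly below the 45.0% of all. Chromosome 7 with 53.7% (49.2 to 58.2%), chromosome 11 with 50.8% (46.7 to 55.0%) and chromosome 15 with 51.6% (45.4 to 57.8%) lay wholly above it. The 45.0% includes chromosome 1. The 46.4% without chromosome 1 lay inside the interval of chromosome 15 and below those of chromosomes 7 and 11.

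**Figure D5:**
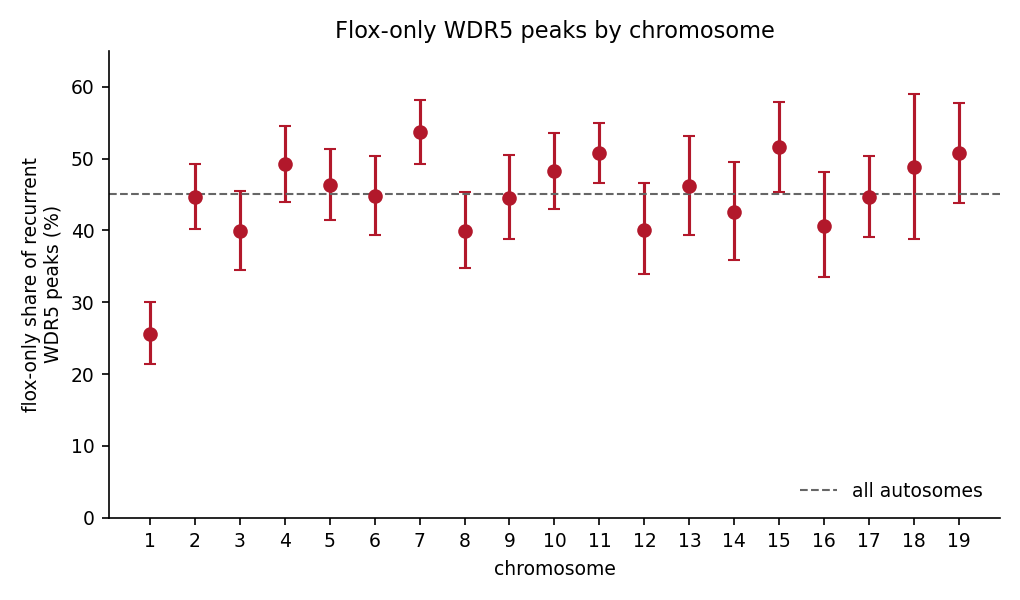
Share of recurrent WDR5 peaks that were flox-only on each autosome; bars are 95% Wilson intervals over peaks and the dashed line is the share on all autosomes, 45.0%. Chromosome 1, at 25.5%, lay below every other autosome.

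The low share on chromosome 1 ran along the chromosome and across peak widths. In windows of 50 Mb it was 17.0% (8.89 to 30.1%), 22.3%, 23.1% and 31.6% (24.8 to 39.3%), with overlapping intervals. At a WDR5 width of 101 to 200 bp it was 35.2% (27.3 to 44.1%) against 59.0% (56.5 to 61.4%) on the other autosomes, and at 301 to 500 bp 9.88% (5.09 to 18.3%) against 36.6% (33.9 to 39.4%). At 75 to 100 bp the intervals overlapped, at 59.0% (43.4 to 72.9%) and 66.3% (62.5 to 70.0%). Of the recurrent peaks on chromosome 1, 6.44% (4.40 to 9.34%) were flox-only with no MAF9 WDR5 within 2 kb, against 17.3% on all autosomes. The lists themselves differed there. Chromosome 1 held 10.8% of the DMSO and 11.0% of the MM-401 WDR5 peaks, against 7.85% in EtOH and 7.46% in 4OHT (all of autosomal peaks), and the rule used all 4 of these lists. For H3K4me2, which had no part in that step, the shares were 7.36% in DMSO, 7.44% in MM-401, 6.67% in EtOH and 6.81% in 4OHT. The MLL1 lists of MAF9 cells, which the rule did not use either, had 11.1% of their DMSO and 10.7% of their MM-401 peaks there. H3K4me2 at the 99 flox-only peaks of chromosome 1 was called in 87.9% of cases in DMSO and 92.9% in MM-401, and in neither list at 6 (6.06%, 2.81 to 12.6%).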

How the data were processed

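ChIP-seq peak positions were analysed for WDR5 and H3K4me2 in EtOH, 4OHT, DMSO and MM-401 cells and for MLL1 in DMSO and MM-401 cells, 10 lists from 14 samples. The 4 inputs had no list here. The authors deposited positions only, with no score, height or read count, 1 list per library and no pooling. The submitters' processing notes name Bowtie and mm9, without a version. In 9 lists the peak names and a 25 bp grid identified HPeak, read as 1-based and inclusive, whose thresholds are not given in the sources used here. The DMSO MLL1 list had no grid and came from MACS per the study's methods. It was read as 0-based, with a possible error of 1 bp.

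Overlap meant at least 1 shared bp. Distance is the number of bases between peaks. The host is the EtOH H3K4me2 peak that shares most bases with the WDR5 peak. Shares carry 95% Wilson intervals and medians 95% order-statistic intervals, which cover counting only, and the depth behind them is unknown. Python 3.11.15, numpy 2.4.6, scipy 1.17.1 and matplotlib 3.10.9 were used, and overlaps were checked on planted lists and with bedtools 2.31.1. The members, groups and classes were chosen with earlier results of these data known. Regions named by position were the 5 widest flox-only peaks, the 5 widest with no MAF9 H3K4me2, the 3 hosts with most flox-only peaks, the 3 widest hosts with no MAF9 H3K4me2, and the 3 flox-only peaks farthest from MAF9 WDR5, with ties taken by chromosome number and start. The reference tables at hand were on GRCm38, another build, so no gene or sequence is given. The alternatives changed the overlap rule, the lists used, their lengths and the base list.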

Additional observations from a re-analysis of the deposited data

Results flagged for a closer look

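The mean width of the H3K4me2 peak over the 2213 flox-only WDR5 peaks covered in all 4 conditions moved in opposite directions with treatment in the cell lines. Treatment with MM-401 went with a mean of 3445 bp against 2874 bp in DMSO, a difference of 570 bp. With 4OHT the mean was 3641 bp against 5063 bp in EtOH, a difference of -1422 bp. The medians differed the same ways, at 2725 bp in MM-401 and 2200 bp in DMSO, and at 2900 bp in 4OHT and 3950 bp in EtOH. Whether the treatments differed in this was not tested, since each condition had 1 library. The peaks were chosen for lying in the EtOH list, from which the hosts were also taken. The directions were not particular to flox-only peaks. Over all peaks called in each list, those shared with both MAF9 lists had means of 4609 bp in EtOH and 3525 bp in 4OHT. Their means were 2699 bp in DMSO and 3313 bp in MM-401. For peaks shared with 1 MAF9 list the means were 4739 and 3429 bp, and 2643 and 3255 bp.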

How the results depend on the processing

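Of 78 alternative values, 31 moved by less than their counting interval, or less than 1.5 times for counts, and 47 moved further. In the order count, H3K4me2 in DMSO, in MM-401, in neither MAF9 list and median host width, the rule as applied gave 2602, 87.2%, 95.6%, 3.19% and 3900 bp. With peaks up to 2 kb apart shared in every step, the H3K4me2 shares were 76.6%, 80.0% and 17.0% and the host 3125 bp. In this setting WDR5 peaks up to 2 kb outside EtOH H3K4me2 also entered. With 50% of the peak covered in every step they were 88.6%, 97.0% and 2.10%. Peaks with no MAF9 WDR5 within 2 kb numbered 1001, with 94.4% in MM-401, a host of 3175 bp and 2.50% of them on chromosome 1, against 3.80% of all flox-only peaks. Leaving out the 4OHT WDR5 list gave 12039 peaks, 91.3% in MM-401, 5.66% in neither and 3375 bp. Leaving out the EtOH H3K4me2 list gave 75.6%, 82.6% and 15.7%, as peaks outside H3K4me2 then entered. Starting from 4OHT WDR5 peaks gave 90.7%, 98.3%, 1.08% and 2750 bp. WDR5 lists cut to their widest 14289 peaks gave 1460 peaks, 88.4%, 96.9% and 2.12%. Counting a mark up to 2 kb away gave 99.8%, 99.9% and 0.0769%, with 99.8% in 4OHT, 20.8% for DMSO MLL1 and 44.4% for MM-401 MLL1. Requiring 50% of the flox-only peak to be covered gave 76.3%, 90.5% and 7.96%, with 87.5%, 1.35% and 2.27%. Over whole hosts the shares were 98.9%, 98.9% and 0.734%, and flox-only peaks at least as wide as the median gave 89.8%, 97.0% and 1.98%. Each host once gave 3750 bp, and the 4OHT domain as host 2800 bp. After the data were seen, the chromosome 1 share of flox-only peaks was recomputed without the DMSO WDR5 list, 4.83%. As a share of recurrent peaks, chromosome 1 stayed below the other autosomes with WDR5 lists of equal length (20.5% against 40.8%), without the DMSO list (44.8% against 63.5%) and without the MM-401 list (38.1% against 58.4%). No paired analysis was possible because each condition and antibody had 1 library, so no replicate could be left out either.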

Other observations

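The sex chromosomes lay outside the rule. On X, 34 EtOH WDR5 peaks were recurrent and 22 of them overlapped no MAF9 WDR5 peak, or 64.7% (47.9 to 78.5%), above the 45.0% of the autosomes. H3K4me2 was called at 15 of these 22 in DMSO and at 20 in MM-401.

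The rule was also turned around. Of 5191 autosomal DMSO WDR5 peaks that lay in DMSO H3K4me2 and overlapped an MM-401 WDR5 peak, 2059 (39.7%) overlapped no EtOH or 4OHT WDR5 peak. On chromosome 1 this was 298 of 679, or 43.9% (40.2 to 47.6%), with an interval just above the share of all autosomes. The share was higher still on chromosomes 13, 15 and 18, and the interval of chromosome 13 (46.4%, 40.2 to 52.8%) also lay wholly above the share of all autosomes. Chromosome 7 (34.0%, 28.8 to 39.6%) and chromosome 11 (32.0%, 27.3 to 37.2%) lay wholly below it.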
